A study of Mus musculus with 70 samples.

Results

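The 10 genes Eif2ak3, Ern1, Atf4, Atf5, Xbp1, Ddit3, Asns, Chac1, Trib3 and Hspa5 of the unfolded protein response and the integrated stress response were followed through the development of the mouse dorsal cortex. They were chosen by gene symbol, as established components of these responses, with earlier results of these data known. All 10 of 10 were among the 23078 genes of the expression table and among the 15508 genes tested. RNA from sorted cells was sequenced in 70 libraries that fell into 23 groups, each 1 cell type at 1 stage with 2 to 4 libraries. Newborn neurons (NBN, 14 libraries, E15.5 to PN) and basal progenitors (BP, 23 libraries, E12.5 to PN) came from Tbr2::GFP embryos and pups, and neural stem cells (NSC, 33 libraries, E10.5 to PN) from Hes5::GFP ones. E gives the embryonic day and PN is postnatal day 1. All animals were wild-type C57Bl/6 apart from the reporter, no group was treated, and the dorsal cortex was dissociated with papain before green fluorescent cells were sorted. A Tbr2 reporter marks progenitors committed to the neuronal lineage and, because GFP protein outlasts its mRNA, their newborn daughters, and a Hes5 reporter marks cells with active Notch signalling. The labels do not say how the NBN and BP fractions were separated. Since NSC came from one reporter line and both other cell types from another, line and cell type cannot be told apart where NSC are compared. The labels do not say whether the libraries of a group came from separate litters or cultures, so p-values measure the spread between libraries, which may be technical.

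Cells meet misfolded protein in the endoplasmic reticulum (ER) with 3 sensors, of which PERK (gene Eif2ak3) and IRE1 (Ern1) are in the set. PERK phosphorylates the translation factor eIF2alpha, which slows protein synthesis but lets the ATF4 and ATF5 proteins be made. Other kinases do the same when amino acids or haem run short or viral RNA is present, which is why that branch is called integrated. IRE1 splices the Xbp1 mRNA into the form that encodes an active factor for ER folding and degradation genes. In the embryonic mouse cortex, this response is known to be high in early radial glia and to ease as they switch from making neurons directly to making basal progenitors. Gene-level mRNA values report none of the steps these proteins are regulated by: not PERK or eIF2alpha phosphorylation, not ATF4 translation, and not Xbp1 splicing.

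The promoters of the target genes show which of them carry the letters bound by each branch. The C/EBP-ATF response element was searched as TGATGNAA and the ER stress response element as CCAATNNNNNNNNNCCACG, on both strands, from 250 bases before to 50 bases after each RefSeq start on GRCm38.p6. All 10 genes matched a promoter, with 2 for Atf5. The first motif was found in 1304 of 32851 promoters (3.97%) and, among the 10 genes, in those of Asns, Chac1 and Trib3. The second was found in 39 promoters (0.119%) and, among the 10 genes, in that of Hspa5. The unfolded protein response element, searched as TGACGTGG, stood in 222 promoters (0.676%) and in none of these 11. The 4 promoters that hold a match are printed 5′ to 3′ along the gene, with the fixed letters of the match in capitals; a match is a description of the sequence and not of binding. They lie at chr6:7693160-7693459 on the minus strand (Asns), chr2:119350992-119351291 on the plus strand (Chac1), chr2:152344011-152344310 on the minus strand (Trib3) and chr2:34771840-34772139 on the plus strand (Hspa5).
Asns: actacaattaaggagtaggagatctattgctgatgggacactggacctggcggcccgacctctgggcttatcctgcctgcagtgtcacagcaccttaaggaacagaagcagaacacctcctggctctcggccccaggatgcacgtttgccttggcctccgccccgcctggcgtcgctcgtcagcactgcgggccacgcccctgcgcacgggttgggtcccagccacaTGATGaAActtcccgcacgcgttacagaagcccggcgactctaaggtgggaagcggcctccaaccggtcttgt
Chac1: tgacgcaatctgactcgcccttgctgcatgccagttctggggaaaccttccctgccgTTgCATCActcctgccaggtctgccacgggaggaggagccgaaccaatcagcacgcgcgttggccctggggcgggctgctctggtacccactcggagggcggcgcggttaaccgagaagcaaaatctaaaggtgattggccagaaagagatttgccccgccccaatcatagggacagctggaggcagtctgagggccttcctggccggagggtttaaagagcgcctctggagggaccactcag
Trib3: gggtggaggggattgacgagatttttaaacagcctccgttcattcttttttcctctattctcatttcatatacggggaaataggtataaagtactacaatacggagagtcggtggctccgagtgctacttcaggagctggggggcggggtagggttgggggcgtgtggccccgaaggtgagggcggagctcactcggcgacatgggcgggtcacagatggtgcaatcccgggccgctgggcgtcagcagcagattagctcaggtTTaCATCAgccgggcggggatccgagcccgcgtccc
Hspa5: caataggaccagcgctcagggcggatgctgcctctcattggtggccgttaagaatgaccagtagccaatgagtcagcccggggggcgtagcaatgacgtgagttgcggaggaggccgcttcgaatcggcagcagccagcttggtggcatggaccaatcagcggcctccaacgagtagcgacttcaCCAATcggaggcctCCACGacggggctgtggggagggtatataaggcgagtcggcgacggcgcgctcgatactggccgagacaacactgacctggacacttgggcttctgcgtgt
The Asns match (TGATGAAA) reads along the gene, while the Chac1 (TGATGCAA) and Trib3 (TGATGTAA) matches read on the opposite strand.

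Of the genes used to sort the libraries, Hes5 bore out the labels, but Eomes did not separate BP from NSC. Hes5 had a median of 2.86 TPM (abundance corrected for transcript length and library total) in NBN, 4.00 in BP and 111 in NSC, and Eomes, which encodes Tbr2, 22.4, 407 and 265 TPM in the same order, so Hes5::GFP sorts also held Eomes mRNA. Eomes ranged from 248.5 to 715.4 TPM in BP and from 20.85 to 737.2 TPM in NSC. In BP minus NSC none of 4 basal progenitor markers was called, with sums of 675.9 to 1410 TPM in BP and 396.4 to 1481 TPM in NSC. All 8 stem cell and radial glia markers were called lower in BP. Tubb3, a neuronal tubulin, ranged from 337 to 2672 TPM across the NSC libraries. The library NSC PN replicate 3 has a cell type field that reads basal progenitor, against its title and reporter, and was kept as NSC; without it no call changed and no member's difference moved by more than 0.03. All samples are labelled female, but 43 of 70 libraries held more than 10 TPM summed over 4 Y-linked genes. The table gives TPM without counts, so depth is unknown; 16098 to 21210 genes were above 0 per library.

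**Figure D1:**
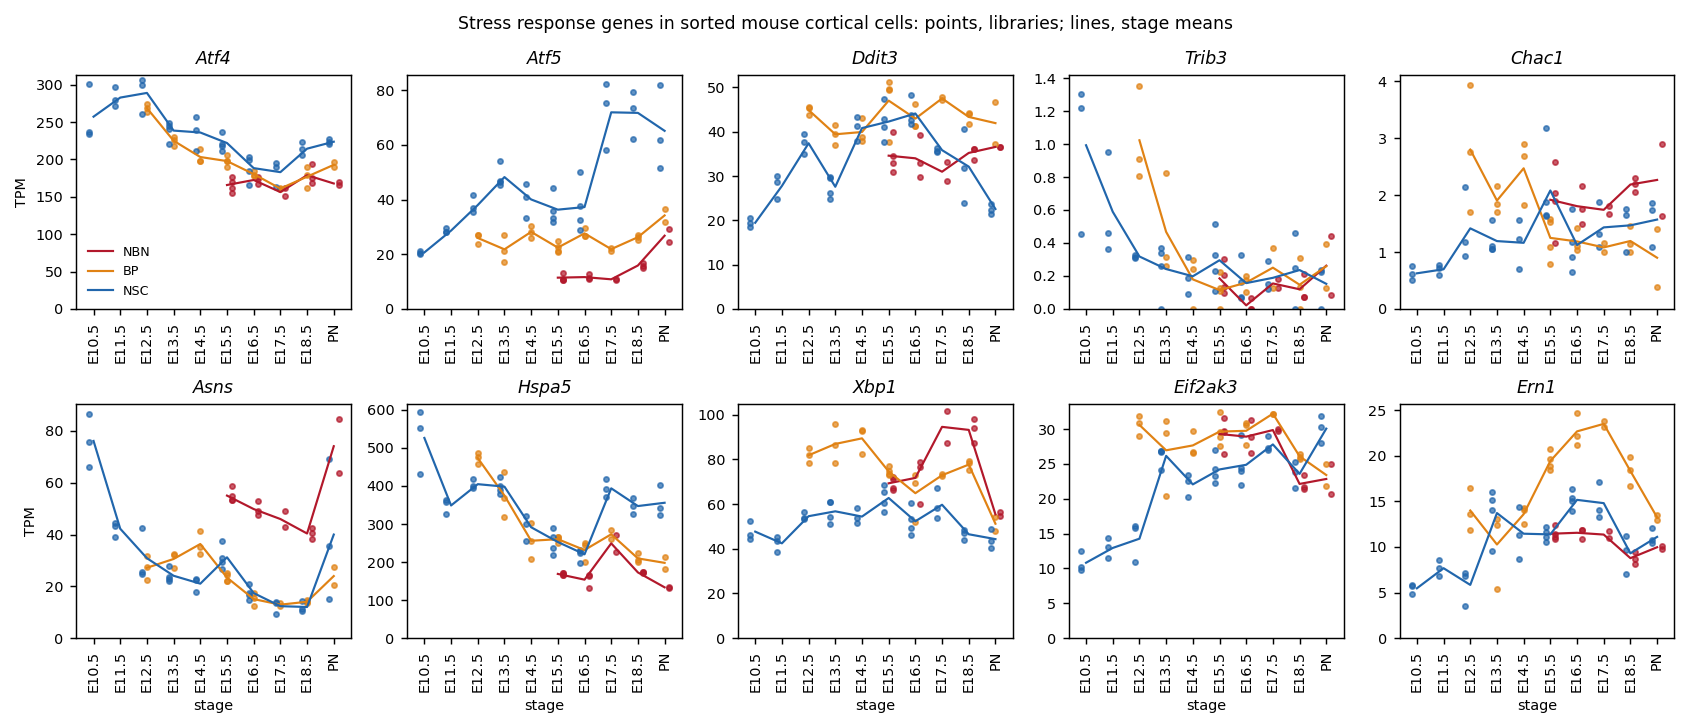
TPM of each of the 10 genes (vertical axes, linear from 0) by stage (horizontal axes, E10.5 to PN) in NBN, BP and NSC; points are libraries and lines join stage means. Asns has its highest NSC mean at E10.5 (66.2 to 86.7 TPM over libraries). Its NBN libraries (38.2 to 84.6 TPM) lie above BP at all 5 shared stages and above NSC at 4, with overlap at PN. For Atf5, NBN lie below BP and NSC at each of the 5 stages, and BP below NSC at 7 of 8 stages.

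The gene for the PERK sensor, Eif2ak3 (chr6:70844515-70905245, plus strand, GENCODE vM21 on GRCm38, as for the other genes), was at its lowest in the youngest stem cells and rose 1.96-fold to mid-neurogenesis. In NSC it measured 9.77, 10.2 and 12.46 TPM at E10.5, 13.1, 14.3 and 11.48 TPM at E11.5, 15.9, 16.04 and 10.9 TPM at E12.5, and 24.1, 26.9, 26.7 and 26.9 TPM at E13.5. Mid-stage NSC (E13.5 to E15.5) ranged from 20.2 to 27.0 TPM with a median of 24.1, against 9.77 to 14.3 TPM with a median of 11.97 in early NSC (E10.5 and E11.5), and the 2 sets did not overlap. The share of all genes without overlap between these 2 windows was not counted, so a lack of overlap here and in the members below has no background. The log2 difference, mid minus early, was 0.97 ± 0.07 (SE, n = 11 and 6, adjusted p = 3.93e-18), computed like all differences and folds here on log2(TPM + 1) with limma over all tested genes. It kept its direction but was 0.73 after scaling by median ratios and 0.63 after quantile normalization. In the same comparison embryonic erythroid genes summed to 0.503 to 106.5 TPM in mid and 1186 to 8018 TPM in early NSC (5 of 5 called lower), neuronal markers to 2266 to 5262 TPM in mid and 413 to 2945 TPM in early NSC (6 of 7 called higher), and ventral interneuron markers to 38.5 to 636.5 TPM in mid and 34.3 to 317 TPM in early NSC (3 of 5 called higher). Their part in this and every other mid minus early difference was not tested. In sorted bulk samples, fewer cells of a type and less RNA per cell cannot be told apart.

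Averaged over the shared stages, cell type differences in Eif2ak3 were smaller in size than that step. The gap was not even over stages: at E12.5 the means were 30.6 TPM in BP and 14.3 TPM in NSC. Over the 8 shared stages, BP ranged from 20.4 to 32.5 TPM with a median of 29.1, against 10.9 to 31.9 TPM with a median of 24.3 in NSC (log2 difference 0.24 ± 0.04, n = 23 and 27, adjusted p = 3.12e-07). Every BP library lay above every NSC library of its stage at 5 stages, and at PN every BP library lay below the NSC ones. Late minus mid, NSC gave 0.16 ± 0.06 (adjusted p = 0.0202), which did not pass with median ratio scaling (0.06, adjusted p = 0.294) and turned to -0.03 with quantile normalization. NBN did not pass the test against BP (-0.09 ± 0.05, adjusted p = 0.152) or against NSC (0.02 ± 0.05, adjusted p = 0.7), but passed against NSC with median ratio scaling (0.16, adjusted p = 0.000236) and quantile normalization (0.21, adjusted p = 9.39e-07). Within NBN it was lower in the late libraries (E17.5 to PN) than in the early ones (E15.5 and E16.5), with a log2 difference of -0.23 ± 0.07 (adjusted p = 0.0147), which did not pass without NBN PN replicate 1 (-0.18, adjusted p = 0.0853). The order of its 23 group means ran from BP E17.5 (32.2 TPM) to NSC E10.5 (10.8 TPM), with 2 of the 22 neighbouring pairs separated without overlap. An antisense gene, Gm43292, shares 485 exon bases with Eif2ak3, and use of strand in the counting is not stated, so its reads cannot be told apart.

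Ern1 (chr11:106394650-106487852, minus strand), which encodes the sensor and RNase IRE1, had its highest levels in basal progenitors from E15.5 to E17.5. At E17.5 it measured 11.7 and 11.0 TPM in NBN and 23.8 and 23.2 TPM in BP. Over the 5 shared stages NBN ranged from 8.18 to 12.4 TPM with a median of 10.9, against 12.97 to 24.7 TPM with a median of 19.7 in BP, so the 2 cell types did not overlap at any stage. The log2 difference was -0.80 ± 0.09 (n = 14 each, adjusted p = 9.79e-12). BP was in turn 0.51 ± 0.06 above NSC (adjusted p = 5.12e-10), without overlap at 6 of 8 stages. NBN against NSC gave -0.18 ± 0.08 (adjusted p = 0.0401), but this was -0.05 with median ratio scaling (adjusted p = 0.5), turned to 0.19 with quantile normalization (adjusted p = 0.00878) and did not pass without NSC E18.5 replicate 1 (-0.15, adjusted p = 0.0827).

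Within the stem cells Ern1, like Eif2ak3, was higher in mid than in early NSC, but they parted at other steps. Ern1 measured 4.79, 5.75 and 5.84 TPM at E10.5, 6.84, 7.09 and 3.57 TPM at E12.5 and 9.59, 14.03, 16.1 and 15.2 TPM at E13.5. Its mean was 7.665 TPM at E11.5 and 5.83 TPM at E12.5, against 12.9 and 14.3 TPM for Eif2ak3. At E16.5 and PN the means were 15.2 and 11.1 TPM for Ern1 and 24.9 and 30.1 TPM for Eif2ak3. Mid NSC spanned 8.66 to 16.1 TPM, against 4.79 to 8.60 TPM in early NSC, a difference of 0.80 ± 0.11 (adjusted p = 9.43e-09) with no overlap, and 0.42 with quantile normalization (adjusted p = 5.74e-05). Late minus mid, Ern1 was 0.36 ± 0.11 higher in BP (adjusted p = 0.00419) and -0.06 ± 0.10 in NSC (adjusted p = 0.601), and the difference between these changes passed its own test (0.42 ± 0.15, adjusted p = 0.0144). The BP value depended on the settings: it was 0.18 with quantile normalization (adjusted p = 0.0851), 0.22 when E12.5 and E16.5 were added to the mid window (adjusted p = 0.0564) and 0.24 without BP E13.5 replicate 1, which had 5.37 TPM beside 13.04 and 12.4 TPM. With that wider window the difference between the changes was 0.15 (adjusted p = 0.351). As a description over the 23 group means, Ern1 and Eif2ak3 correlated at r = 0.78, and over the 70 deviations of libraries from their group means at r = 0.74, where both values come from the same library and scaling. The genes whose group means most resembled each were Dyrk1b and Zbtb24 for Ern1 (both r = 0.96 over 23 groups) and Rapgef2 and Scarb2 for Eif2ak3 (both r = 0.95).

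Atf4 (chr15:80255184-80257541, plus strand), which encodes the central factor of the integrated stress response, had abundant mRNA everywhere and changed little. Its group means lay within a 1.85-fold span, from 289 TPM in NSC E12.5 to 156 TPM in NBN E17.5, and none of the 22 neighbouring pairs in that order were separated. Across libraries the range was 151 to 194 TPM in NBN, 161 to 275 TPM in BP and 164 to 306 TPM in NSC. NBN were lower than NSC by a log2 difference of -0.29 ± 0.03 (adjusted p = 6.91e-11), or -0.15 with median ratio scaling (adjusted p = 0.0027). NBN minus BP gave -0.11 ± 0.04 (adjusted p = 0.00674) but -0.01 with median ratio scaling (adjusted p = 0.88). It was also lower in mid than in early NSC (-0.21 ± 0.05), in late than in mid NSC (-0.17 ± 0.04) and in late than in mid BP (-0.24 ± 0.05, largest of the 3 adjusted p = 0.000359). With median ratio scaling these 3 were -0.47, -0.28 and -0.37. In late NBN no such difference passed (-0.01 ± 0.05, adjusted p = 0.852).

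Atf5 (chr7:44812256-44816658, minus strand), a related factor whose protein is also made when eIF2alpha is phosphorylated and which is known to hold cortical progenitors back from neuronal differentiation, had the largest cell type difference of the 10 genes, with NBN lowest and NSC highest. At E17.5 it measured 10.9 and 10.8 TPM in NBN, and 58.2, 82.2 and 75.4 TPM in NSC. Over the 5 shared stages NBN ranged from 10.7 to 29.1 TPM with a median of 12.01, BP from 21 to 36.6 TPM with a median of 25.8, and NSC from 28.8 to 82.2 TPM with a median of 51.4. At each of the 5 stages all NBN libraries lay below all BP and all NSC libraries. The log2 differences were -0.82 ± 0.07 for NBN minus BP (n = 14 each, adjusted p = 1.42e-15), -1.82 ± 0.06 for NBN minus NSC (n = 14 and 17, adjusted p = 1.06e-31) and -0.89 ± 0.05 for BP minus NSC (n = 23 and 27, adjusted p = 1.48e-22). BP libraries were below NSC libraries at 7 of 8 stages, the exception being E16.5, when NSC had 28.8 to 50.04 TPM. In NBN minus NSC the 5 ventral interneuron markers summed to 5.13 to 61.6 TPM in NBN and 109 to 1027 TPM in NSC, oligodendrocyte precursor markers to 1.14 to 37.6 TPM in NBN and 9.38 to 1571 TPM in NSC, and astroglial markers to 14.1 to 178.7 TPM in NBN and 30.7 to 2845 TPM in NSC, with all 5, 4 and 4 genes called lower. In BP minus NSC 5, 4 and 3 of them were called lower, and their part in the NSC comparisons of any member was not tested. Il4i1 and Nup62 each share 82 antisense exon bases with Atf5.

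Atf5 rose in stem cells in both steps tested, but not steadily with age. NSC had 20.2, 20.5 and 21.3 TPM at E10.5, 58.2, 82.2 and 75.4 TPM at E17.5, and 51.4, 82.1 and 62.0 TPM at PN. NSC means were 48.2 TPM at E13.5, 40.05 TPM at E14.5, 36.3 TPM at E15.5, 37.3 TPM at E16.5 and 71.9 TPM at E17.5. Mid minus early NSC gave 0.73 ± 0.09 (adjusted p = 2.01e-10), or 0.48 scaled by median ratios and 0.43 quantile normalized, and late minus mid NSC another 0.73 ± 0.08 (adjusted p = 7.02e-12). The mid libraries spanned 31.7 to 54.2 TPM and the early ones 20.2 to 29.6 TPM, with no overlap, while the late ones, at 51.4 to 82.2 TPM, overlapped the mid ones slightly. In BP the late minus mid difference was 0.17 ± 0.09 (adjusted p = 0.085), and the BP change was smaller than the NSC change by a log2 difference of -0.56 ± 0.12 (adjusted p = 6.65e-05). In NBN the late minus early difference was 0.50 ± 0.09 (adjusted p = 2.97e-05), over unequal stages: NBN had 10.9 and 10.8 TPM at E17.5, 15.1, 16.9 and 15.7 TPM at E18.5 and 24.5 and 29.1 TPM at PN, with 10.7 to 13.3 TPM in the 7 early libraries. Without PN, a choice made after seeing the data, it was 0.18 (adjusted p = 0.249). Beside the late NSC values, astroglial markers summed to 471 to 2845 TPM in late and 18.6 to 78.1 TPM in mid NSC (4 of 4 called higher), and oligodendrocyte precursor markers to 365 to 1571 TPM in late and 4.86 to 45.3 TPM in mid NSC (4 of 4 called higher); their part in the result was not tested. Its closest genes by group means were Cdkn2c (r = 0.96) and Efhd2 (r = 0.95).

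Xbp1 and Ddit3 were both higher in basal progenitors than in stem cells, and Ddit3 was lower in newborn neurons than in basal progenitors. Xbp1 (chr11:5520659-5525893, plus strand), the mRNA that IRE1 splices, measured 102 and 87.4 TPM in NBN at E17.5 and 67.4, 58.2 and 53.6 TPM in NSC. Over the shared stages NBN ranged from 54.5 to 102 TPM (median 74.3), against 40.5 to 68.5 TPM (median 53.2) in NSC, a log2 difference of 0.51 ± 0.05 (adjusted p = 6.24e-15) with no overlap at 3 of 5 stages. BP minus NSC was 0.46 ± 0.04 (adjusted p = 5.93e-17), with BP above at 6 of 8 stages. NBN and BP were close, with a log2 difference of 0.16 ± 0.05 (adjusted p = 0.00365) that had NBN above at 3 stages and below at 1 and was 0.02 over stages up to E16.5 (adjusted p = 0.802). Late minus mid, Xbp1 gave -0.33 ± 0.06 in BP (adjusted p = 1.10e-05) and -0.21 ± 0.06 in NSC (adjusted p = 0.000621), but without PN -0.14 in BP (adjusted p = 0.0697) and -0.13 in NSC (adjusted p = 0.0614). Mid minus early NSC gave 0.36 ± 0.06 (adjusted p = 1.31e-06), but 0.10 with median ratio scaling (adjusted p = 0.167) and 0.15 with quantile normalization (adjusted p = 0.0415).

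Ddit3 (chr10:127290774-127296288, plus strand) encodes CHOP, a factor best known for driving cell death under prolonged ER stress. It measured 36.5 and 36.7 TPM in NBN at PN, and 22.4, 21.5 and 23.8 TPM in NSC at PN. BP spanned 37.1 to 51.3 TPM with a median of 43.7, against 21.5 to 48.2 TPM with a median of 37.6 in NSC (log2 difference 0.32 ± 0.04, adjusted p = 3.22e-10), with BP above at 5 of 8 stages. NBN, at 28.8 to 40.0 TPM, were below BP, at 37.3 to 51.3 TPM, by a log2 difference of -0.37 ± 0.05 (adjusted p = 2.57e-08), without overlap at 4 of 5 stages. Against NSC, NBN did not pass (-0.01 ± 0.05, adjusted p = 0.911), a value that averaged stages of opposite direction. Every NBN library lay below every NSC library at E16.5 and E17.5, and above at PN. The difference was -0.18 without PN (adjusted p = 0.00333) and -0.33 over stages up to E16.5 (adjusted p = 7.55e-05). Over all 5 stages, median ratio scaling gave 0.13 (adjusted p = 0.028) and quantile normalization 0.16 (adjusted p = 0.00877). In stem cells Ddit3 was 0.62 ± 0.07 higher in mid than in early NSC (adjusted p = 1.88e-11), or 0.37 scaled by median ratios and 0.32 quantile normalized. Late minus mid NSC gave -0.29 ± 0.06 (adjusted p = 4.61e-05), and -0.11 without PN (adjusted p = 0.189). The late minus mid change was 0.07 ± 0.07 in BP (adjusted p = 0.357), and the 2 changes differed (0.36 ± 0.09, adjusted p = 0.000781), though not past the threshold without PN (0.22, adjusted p = 0.0748). Ddit3 shares 68 antisense exon bases with Mars, the methionyl-tRNA synthetase gene, and 13 with Gm4189.

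**Figure D2:**
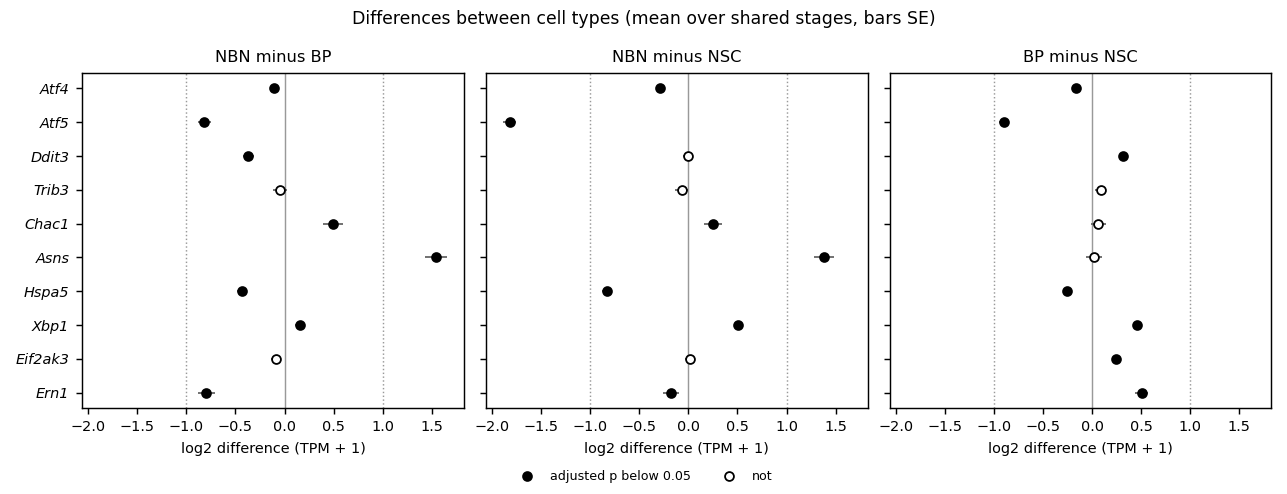
Log2 differences in TPM + 1 (horizontal axis) with SE bars for the 10 genes in NBN minus BP, NBN minus NSC and BP minus NSC; filled points passed an adjusted p of 0.05 and dotted lines mark a difference of 1 either way. Asns lies at 1.54 and 1.38 in the NBN comparisons and near 0 in BP minus NSC, and Atf5 is below 0 in all 3.

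Asns (chr6:7675169-7693254, minus strand), which encodes the enzyme that makes asparagine from aspartate and glutamine and is a standard reporter of ATF4 activity, was 2.9-fold higher in newborn neurons than in the basal progenitors from the same reporter line. At E15.5 it measured 53.2, 53.3, 58.7 and 54.8 TPM in NBN, 22.0, 21.9, 25.1 and 24.4 TPM in BP, and 37.7, 29.6, 26.7 and 30.9 TPM in NSC. At E17.5 it measured 43.0 and 49.0 TPM in NBN, 12.3 and 13.6 TPM in BP, and 9.39, 13.6 and 13.98 TPM in NSC. In both stages the NBN libraries stood above all others. Over the 5 shared stages NBN averaged 52.2 ± 11.7 TPM (SD, n = 14) and BP 18.2 ± 5.21 TPM (n = 14), with no overlap at any stage, and the log2 difference was 1.54 ± 0.11 (adjusted p = 2.38e-18). NBN minus NSC gave 1.38 ± 0.10 (adjusted p = 6.21e-18), with NSC at 22.8 ± 14.9 TPM (n = 17). The NSC libraries were widest apart at PN, the stage where the groups overlapped: the 3 NSC libraries had 15.2, 69.2 and 35.5 TPM, against 63.6 and 84.6 TPM in NBN. Leaving out 1 library at a time, NBN minus NSC kept between 1.27 (without NSC PN replicate 1) and 1.48 (without NSC PN replicate 2). Between BP and NSC no difference was detected (0.02 ± 0.08, adjusted p = 0.819), with BP above at E14.5 and below at E15.5.

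Within the stem cells Asns fell steeply over the first days. NSC had 86.7, 75.6 and 66.2 TPM at E10.5, 44.3, 39.2 and 43.2 TPM at E11.5, 25.4, 42.5 and 24.8 TPM at E12.5, and 11.2, 14.2 and 10.6 TPM at E18.5. Mid NSC ranged from 17.8 to 37.7 TPM with a median of 23.6, against 39.2 to 86.7 TPM with a median of 55.3 in early NSC, without overlap. The log2 difference, mid minus early, was -1.15 ± 0.14 (adjusted p = 2.38e-10). Late minus mid it was lower again in NSC (-0.52 ± 0.12, adjusted p = 0.000233), with a range of -0.69 (without NSC PN replicate 2) to -0.34 (without NSC PN replicate 1), and in BP (-0.82 ± 0.14, adjusted p = 1.50e-06). BP measured 35.2, 32.5 and 41.3 TPM at E14.5 and 14.9, 13.8 and 13.48 TPM at E18.5. Without the PN libraries the difference was -1.08 in BP and -0.99 in NSC. In NBN the late minus early difference was -0.02 ± 0.15 (adjusted p = 0.923), which averaged unequal stages: NBN means were 55.0 TPM at E15.5, 49.8 TPM at E16.5, 46.0 TPM at E17.5, 40.4 TPM at E18.5 and 74.1 TPM at PN, with every E18.5 library below every E15.5 library.

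In every cell type Asns was higher at PN than at E18.5, with no overlap between the stages. BP had 20.6 and 27.3 TPM at PN and 14.9, 13.8 and 13.48 TPM at E18.5, and NBN had 63.6 and 84.6 TPM at PN and 38.2, 40.5 and 42.5 TPM at E18.5. Of all tested genes, 39% were higher at PN without overlap in NBN, 26.3% in BP and 33.9% in NSC. The order of the 23 Asns group means ran from NSC E10.5 (76.1 TPM) to NSC E18.5 (12.01 TPM), so its highest and lowest points were both in stem cells, and 2 of the 22 neighbouring pairs were separated, those just below NBN PN and NBN E15.5. The genes nearest to it over these means were Fam49b (r = 0.80) and Gars (r = 0.79), the glycyl-tRNA synthetase.

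Chac1 (chr2:119351229-119354381, plus strand), a glutathione-degrading enzyme, and Trib3 (chr2:152337422-152344032, minus strand), a pseudokinase that feeds back on ATF4, carry the same promoter letters as Asns but had low levels. Chac1 measured 1.17 to 2.90 TPM in NBN and 0.387 to 1.58 TPM in BP over the 5 shared stages, a log2 difference of 0.49 ± 0.10 (adjusted p = 1.71e-05), with NBN above at 4 of 5 stages, and NBN minus NSC gave 0.25 ± 0.09 (adjusted p = 0.0137), or 0.19 without NBN PN replicate 2 (adjusted p = 0.07). Its highest group was BP E12.5, at 2.75, 3.94 and 1.71 TPM. In NSC it had 0.754, 0.622 and 0.501 TPM at E10.5 and was 0.54 ± 0.13 higher in mid than in early NSC (adjusted p = 0.000183), the opposite direction to Asns. In BP it was lower late than mid (-0.47 ± 0.13, adjusted p = 0.00129). Trib3 was at 0 in 8 libraries. Its highest group was BP E12.5, at 0.805 to 1.354 TPM and above NSC of that stage without overlap. NSC E10.5 came next, at 1.30, 1.22 and 0.455 TPM. Mid minus early NSC gave -0.50 ± 0.10 for Trib3 (adjusted p = 6.34e-06), and no other comparison passed for it with the values as deposited. With quantile normalization BP minus NSC (0.17, adjusted p = 0.00784) and NSC late minus mid (-0.21, adjusted p = 0.0293) passed too. At these levels log2(TPM + 1) understates the change: with a pseudocount of 0.1 the Trib3 difference was -1.37.

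Hspa5 (chr2:34771970-34777547, plus strand), which encodes BiP, the major ER chaperone, was lowest in newborn neurons and highest in the youngest stem cells. At E15.5 it measured 171, 166, 172 and 166 TPM in NBN, and at PN 132.2 and 134.8 TPM in NBN, 181 and 214 TPM in BP and 342, 324 and 402 TPM in NSC. Over the 5 shared stages NBN ranged from 132 to 271 TPM (median 169), BP from 181 to 284 TPM (median 247) and NSC from 198 to 417 TPM (median 324). NBN minus NSC gave -0.83 ± 0.05 (adjusted p = 7.83e-22), with NBN below at all 5 stages, and NBN minus BP gave -0.44 ± 0.05 (adjusted p = 1.77e-10), with NBN below at 4. BP minus NSC was -0.26 ± 0.04 over the 8 stages (adjusted p = 4.96e-08), but BP was above NSC at E12.5 and below it at E17.5, E18.5 and PN; with stages up to E16.5 alone the difference was 0.01 (adjusted p = 0.867).

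The 2 progenitor types parted in Hspa5 late in development. NSC had 433, 553 and 593 TPM at E10.5, 223, 198, 229 and 232 TPM at E16.5, and 372, 392 and 417 TPM at E17.5. BP had 486, 476 and 459 TPM at E12.5, 201, 249 and 245 TPM at E16.5, and 284 and 262 TPM at E17.5. Mid minus early NSC was -0.47 ± 0.07 (adjusted p = 1.78e-08). Median ratio scaling gave -0.73. Late minus mid, Hspa5 was lower in BP (-0.37 ± 0.07, adjusted p = 4.94e-06) and gave 0.24 ± 0.06 in NSC (adjusted p = 0.000346), a value of 0.14 with median ratio scaling (adjusted p = 0.0548). The changes differed by -0.62 ± 0.09 (adjusted p = 7.32e-08). Its closest genes over the 23 group means were Ormdl1 (r = 0.91), a regulator of sphingolipid synthesis in the ER, and Taf13 (r = 0.90).

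**Figure D3:**
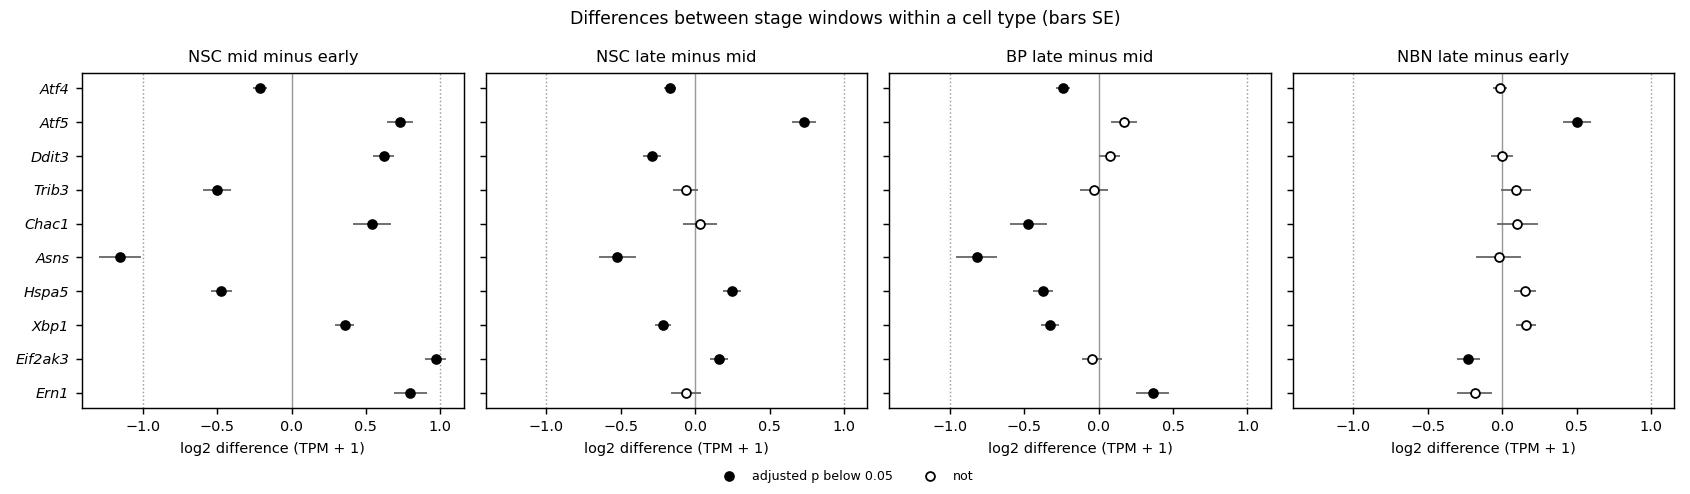
Log2 differences in TPM + 1 (horizontal axis) with SE bars for the 10 genes between age windows: NSC mid minus early, NSC late minus mid, BP late minus mid and NBN late minus early; filled points passed an adjusted p of 0.05. Eif2ak3 (0.97) and Asns (-1.15) mark the ends in NSC mid minus early, and Hspa5 points in opposite directions in late NSC and late BP.

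Counted over the set, the sizes were moderate against a background in which most genes differed. Called here means an adjusted p below 0.05 with a log2 difference of at least 1 either way. In NBN minus BP, 1 of 10 members was called (Asns, higher), against 9.42% of all tested genes in either direction and 4.36% as higher. By adjusted p alone 3 were higher and 5 lower, against 27.9% and 41.9% of all genes (69.8% together). In NBN minus NSC, 2 of 10 were called (Asns higher, Atf5 lower), against 19.1% of all genes, of which 6.51% higher and 12.6% lower. By adjusted p 3 were higher and 4 lower (31.4% and 49.6%, together 80.9%). In BP minus NSC none was called by limma, against 8.09%, while 7 passed an unadjusted p of 0.05, and 4 were higher and 3 lower by adjusted p (35.5% and 40.7%, together 76.2%). Groups that did not overlap at any shared stage were found for 3 members in NBN minus BP (1 higher and 2 lower, against 11.8% and 18.6% of all genes, together 30.4%), 2 in NBN minus NSC (both lower, against 15.2%, and 23.5% in either direction) and none in BP minus NSC (4.57%). These shares lay close to the background, so the cell type contrasts of the set as a whole did not stand out from those of other genes.

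Age gave a similar count. All 10 members passed the adjusted p in NSC mid minus early (77.1% of all genes), 6 higher and 4 lower (47.5% and 29.6%), and 1 was called (Asns, lower), against 19% of all genes, of which 5.26% lower. The higher ones were both sensors, Atf5, Xbp1, Ddit3 and Chac1, and the lower ones Atf4, Asns, Trib3 and Hspa5. In NSC late minus mid none was called by limma (11.8% of all genes), 7 passed an unadjusted p of 0.05, and 3 were higher and 4 lower by adjusted p (45.1% and 25%, together 70.1%). In BP late minus mid none was called (4.71%), 6 passed an unadjusted p of 0.05, and 1 was higher and 5 lower by adjusted p (41.6% and 18.4%, together 60%). In NBN late minus early none was called (2.33%), 4 passed an unadjusted p of 0.05, and 1 was higher and 1 lower by adjusted p (19.2% and 15.3%, together 34.5%). The difference between the BP and NSC changes called none (9.7%), with 6 at an unadjusted p of 0.05, and 2 higher and 3 lower by adjusted p (24.7% and 27.4%, together 52.2%). The members' median was 0.45 in NSC mid minus early, against 0.144 for all genes, and 0.23 with either scaling, against -0.043 (median ratio) and -0.039 (quantile) for all genes; 9 of 10 members passed with median ratio scaling. In the other comparisons the members' median lay between -0.158 and 0.076. It was -0.142 in BP late minus mid and -0.062 in NSC late minus mid, against 0.122 and 0.116 for all genes. For the difference between the BP and NSC changes it was -0.158, against 0.00735. NBN minus BP, NBN minus NSC, BP minus NSC and NBN late minus early gave -0.0975, -0.0372, 0.076 and 0.0473, against -0.069, -0.125, -0.0178 and 0.0308.

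Other genes of the same pathways were counted in the same tests. These lists were chosen with earlier results of these data known, so their counts are not independent of the data. The 14 further ER chaperones and folding enzymes had the direction of Hspa5 in most cases: in NBN minus BP none was higher and 12 were lower by adjusted p, against 41.9% of all genes, and in NBN minus NSC 13 were lower, against 49.6%. Late minus mid, 9 were higher and 3 lower in NSC (45.1% and 25% of all genes), and 2 were higher and 8 lower in BP (41.6% and 18.4%), and the change differed between the cell types in 12, all toward BP being lower (27.4%). Dnajc3, an ER co-chaperone, was the only one of them called in late NSC, at 1.15 ± 0.07. The ER stress response element searched above was in the promoters of 6 of the 11 chaperones that have one in the table: Hsp90b1, Calr, Canx, Pdia6, Dnajc3 and Creld2. The 12 genes of ER-associated degradation and export, listed for the IRE1 and XBP1 branch, went with Ern1 and Xbp1 in 2 comparisons. In BP minus NSC 9 were higher and 2 lower (35.5% and 40.7%). In mid minus early NSC 8 were higher and 1 lower (47.5% and 29.6%), though the Xbp1 rise did not pass with median ratio scaling (0.10, adjusted p = 0.167). Elsewhere they did not follow Xbp1. In NBN minus BP 1 was higher and 7 lower (27.9% and 41.9%), and in NBN minus NSC 4 and 6 (31.4% and 49.6%), while Xbp1 was higher in both. Ern1 was -0.80 in NBN minus BP and -0.18 in NBN minus NSC, the latter 0.19 with quantile normalization. Late minus mid, 6 were higher and 3 lower in BP (41.6% and 18.4%). In NSC 6 were higher and 2 lower (45.1% and 25%), while Xbp1 was lower in both cell types.

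The summed level of the chaperone list had a step at E17.5. In NSC the 14 genes summed to 3425 TPM at E10.5, 2041 TPM at E16.5 (1974 to 2140 over libraries), 3159 TPM at E17.5 (3016 to 3252) and 2645 TPM at E18.5. In NSC 13 of 14 were higher at E17.5 than at E16.5 without overlap, against 27.7% of all genes. In BP 9 of 14 were higher at that step (38.3% of all genes), with sums of 2393 TPM at E17.5 and 2197 TPM at E16.5, and in NBN also 9 (34.6%), with 2230 and 1752 TPM. At E18.5 the sums were lower again, with 8 of 14 genes below E17.5 in NSC, 9 in BP and 11 in NBN (24.3%, 38.7% and 43% of all genes). Each stage was sampled in its own libraries, so stage and any handling shared by a stage cannot be told apart.

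**Figure D4:**
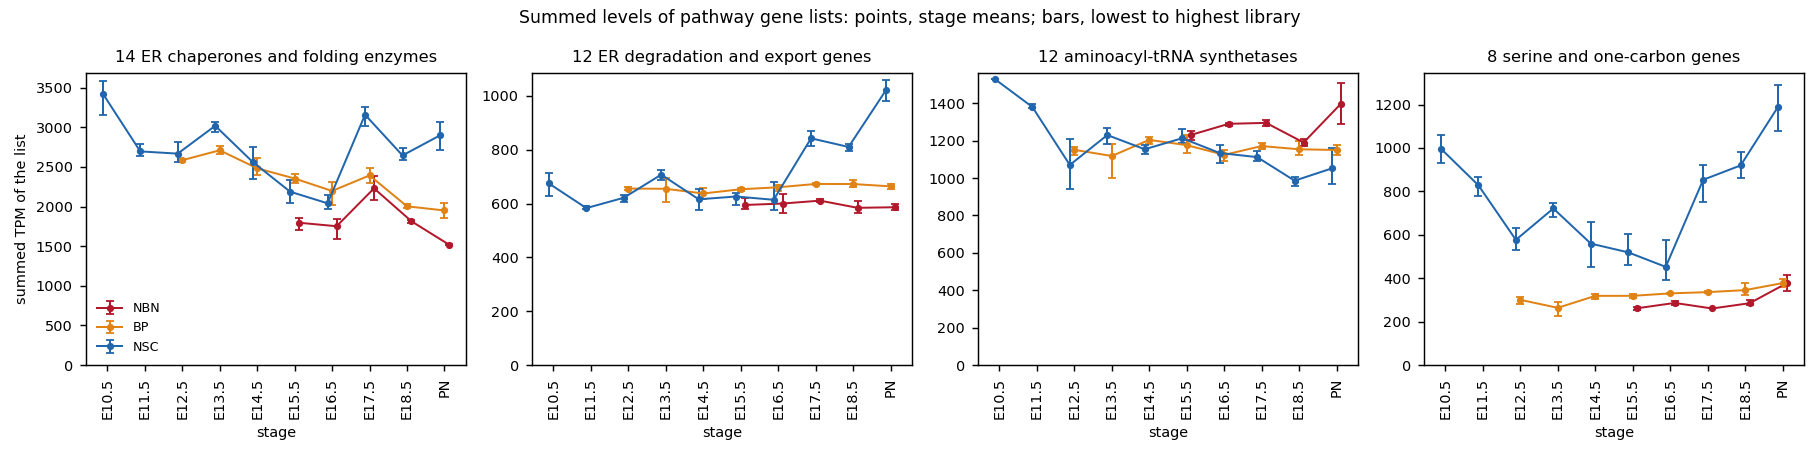
Summed TPM (vertical axes) of 4 pathway lists by stage (horizontal axes) in NBN, BP and NSC: 14 ER chaperones, 12 ER degradation and export genes, 12 aminoacyl-tRNA synthetases and 8 serine, proline and one-carbon genes; points are stage means and bars run from the lowest to the highest library. The chaperone sum in NSC is 2041 TPM at E16.5 and 3159 TPM at E17.5, and the serine list separates NSC from the other cells late.

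Targets of ATF4 in amino acid metabolism did not move as a block. Of 12 cytosolic aminoacyl-tRNA synthetases, which load amino acids onto tRNA, 10 were lower and 1 higher in mid than in early NSC (29.6% and 47.5% of all genes), the same direction as Asns, and the 12 together came to 1529 TPM in NSC at E10.5 and 986 TPM at E18.5. In NBN minus BP 6 were higher and 1 lower (27.9% and 41.9%), among them Gars (log2 difference 0.46) and Yars (0.35). The 8 serine, proline and one-carbon genes went the other way from Asns in neurons: in NBN minus NSC 6 were lower and 1 higher (49.6% and 31.4%). Phgdh and Psat1, enzymes of serine synthesis, gave log2 differences of -3.91 and -2.39, and Pycr1, which makes proline, one of 1.01. In NSC the serine list summed to 853.5 TPM at E17.5 and 1190 TPM at PN, with 452 TPM at E16.5. Of 13 further ATF4 and CHOP targets and partners, 8 were higher and 4 lower in NBN minus BP (27.9% and 41.9% of all genes), with Vldlr, a lipoprotein and reelin receptor, at 1.42 ± 0.11 and Stc2, a secreted glycoprotein, at -1.99 ± 0.11.

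The remaining lists covered translation control, sensors, heat shock and handling. Of 12 eIF2alpha kinases, phosphatase subunits and eIF2 or eIF2B subunits, 1 was higher and 8 lower in mid than in early NSC (47.5% and 29.6% of all genes), and Eif2ak2, the kinase PKR, was the only one called in NBN minus NSC (-1.26). Of 9 tested ER stress sensors and related factors, 1 was higher and 5 lower in NBN minus BP (27.9% and 41.9%), with Bbc3, which encodes the cell death protein PUMA, at 1.18 and Atf6, the third ER sensor, at -0.66. Creb3l2 was 2.08 higher in late than in mid NSC. Of 10 cytosolic heat shock genes, none was higher and 9 were lower in mid than in early NSC (47.5% and 29.6%), with a median of -0.579 and Bag3 at -1.36. The 12 dissociation and immediate early genes, which respond to tissue handling, had 10 lower and 1 higher in NBN minus NSC (49.6% and 31.4%). Btg2, at -2.50 in that comparison, is also on the list of basal progenitor markers. Of the 12, 8 were higher and 2 lower in late than in mid NSC (45.1% and 25%). They summed to 331 TPM in NSC at E10.5 and 1362 TPM in NSC at PN, and their part in the late NSC values was not tested.

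Among libraries of the same group, Asns went with the synthetases. Each library's deviation from its group mean, on log2(TPM + 1), was correlated between Asns and every tested gene over 70 libraries, as a description; the points share library, scaling and sorting. The closest genes were Gars (r = 0.80), Yars (0.78), Mars (0.62), Aars (0.59) and Pycr1 (0.59). All 12 synthetases were positive, with a median of 0.46, against a median of 0.01 over all genes, of which 53.3% were positive and 0.103% above 0.5. By cell type the value for Gars was 0.87 in NBN (14 libraries), 0.72 in BP (23) and 0.83 in NSC (33), and for Yars 0.61, 0.75 and 0.84. The 3 NSC PN libraries lay in 1 order for all 3 genes: Asns had 15.2, 69.2 and 35.5 TPM, Gars 103, 141 and 120 TPM, and Yars 65.0, 84.3 and 72.3 TPM. Without replicates 1 and 2 of that group the values were 0.73 for Gars and 0.74 for Yars.

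Other members followed Asns less closely within groups, or went against it. The value for Atf4 mRNA was 0.29 in NBN, -0.03 in BP and 0.19 in NSC, for Atf5 0.42, 0.46 and 0.37, and for Chac1 0.17, 0.17 and 0.50. For Ddit3 it was -0.04, 0.41 and -0.12, and for Trib3, at low levels, -0.52, -0.47 and 0.03. Over all 70 libraries Hspa5 gave -0.15, Xbp1 -0.03, Eif2ak3 0.15 and Ern1 0.03. Of the 14 ER chaperones 2 were positive with Asns, with a median of -0.09. Across the 23 group means, where stage and cell type add to the spread, Asns and Atf5 gave r = -0.53, against 0.38 within groups. The synthetase promoters hold the same letters as Asns in 5 of the 7 with an entry (Aars, Gars, Iars, Tars and Yars), and the serine and proline list in 2 of 8 (Pycr1 and Pck2). The matches of the 4 genes closest to Asns that have one are printed with 16 bases on either side, 5′ to 3′ along the gene, from RefSeq promoters on GRCm38.p6, with the fixed letters in capitals. They lie at chr6:55037955-55037994 (Gars, plus), chr4:129189890-129189929 (Yars, plus), chr8:111033714-111033753 and chr8:111033835-111033874 (Aars, plus) and chr11:120643828-120643867 (Pycr1, minus).
Gars: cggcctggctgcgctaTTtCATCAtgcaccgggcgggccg
Yars: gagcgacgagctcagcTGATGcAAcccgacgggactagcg
Aars, upstream: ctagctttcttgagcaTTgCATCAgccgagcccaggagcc
Aars, downstream: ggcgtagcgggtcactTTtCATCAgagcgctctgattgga
Pycr1: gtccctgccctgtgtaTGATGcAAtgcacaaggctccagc
Capitals that begin with TT are the element read on the opposite strand.

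**Figure D5:**
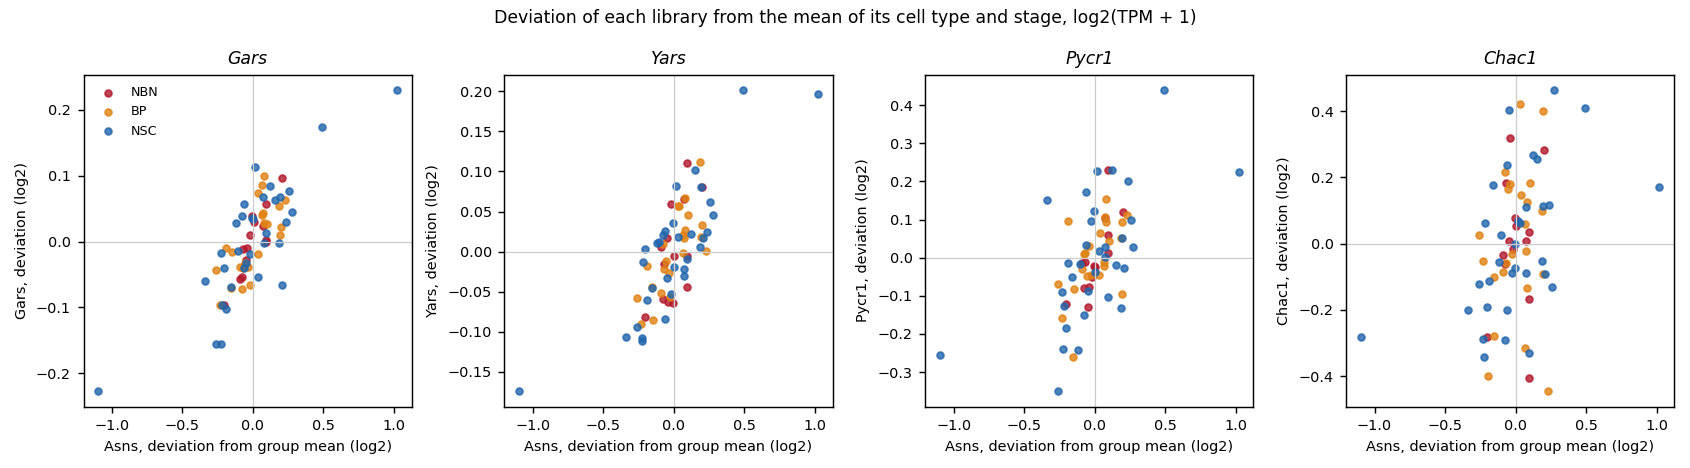
Deviation of each of 70 libraries from its own group mean, in log2(TPM + 1), for Gars, Yars, Pycr1 and Chac1 (vertical axes) against Asns (horizontal axes), coloured by NBN, BP and NSC. Gars (r = 0.80) and Yars (0.78) lie close to a line, and Chac1 (0.37) scatters.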

How the data were processed

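Sorted-cell RNA was sequenced as single reads (TruSeq kit, per the labels). The authors deposited 1 table of TPM per gene and library. Per the submitters' processing notes, kallisto 0.43.0 was used with GRCm38.p2 and mm10; how transcripts were summed to genes, filters and use of strand are not given in the sources used here. Every library column carries its sample's name. No pair of libraries held identical values. TPM keep no depth, so no counting interval could be given.

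From the deposited TPM, a gene was kept if the mean of any 1 group reached 1 TPM, and was tested on log2(TPM + 1) in R 4.3.3 with limma 3.58.1: 1 model with a mean for each of 23 groups (47 residual degrees of freedom), empirical Bayes with trend, Benjamini-Hochberg adjustment over all 15508 genes, and contrasts that weight stages equally. A call needs an adjusted p below 0.05 and a log2 difference of at least 1 either way. The pipeline was tested on simulated data. The 10 members and the pathway lists were chosen with earlier results of these data known. All members were named; of each list, up to 2 called genes in each direction with the largest moderated t were eligible, and for each member the 2 genes nearest by correlation of group means (mean of at least 5 TPM). Gars, Yars, Mars, Aars, Pycr1 beside Asns, and Atf6, were named after their values were seen. Alternatives were pseudocounts of 0.1 and 5, no filter, median ratio scaling, quantile normalization, other windows, a replicate block, and leaving out each library. Of the 32851 RefSeq promoters each was searched for the motifs as spelled.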

Additional observations from a re-analysis of the deposited data

Results flagged for a closer look

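In 5 of 50 checks of a gene within a group of 4 libraries, 1 library lay apart from the other 3 by Dixon's criterion, which chance alone meets in about 1 in 20. Atf5 had 13.3 TPM in NBN E15.5 replicate 2, with 10.7 to 11.0 TPM in the others. Ddit3 had 37.6 TPM in BP E15.5 replicate 1, with 49.5 to 51.3 TPM in the others. Chac1 had 1.57 TPM in NSC E13.5 replicate 2, with 1.05 to 1.099 TPM in the others, and 3.17 TPM in NSC E15.5 replicate 1, with 1.63 to 1.87 TPM in the others. Eif2ak3 had 24.1 TPM in NSC E13.5 replicate 1, with 26.7 to 26.9 TPM in the others.

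For 5 members the late minus mid change differed between BP and NSC by limma's test of the difference itself. The BP change minus the NSC change was -0.56 for Atf5 (adjusted p = 6.65e-05), 0.36 for Ddit3 (adjusted p = 0.000781), -0.50 for Chac1 (adjusted p = 0.0112), -0.62 for Hspa5 (adjusted p = 7.32e-08) and 0.42 for Ern1 (adjusted p = 0.0144). Of all tested genes 52.2% passed the same test. Chac1 did not pass without BP PN replicate 1 (-0.37, adjusted p = 0.0723), Ddit3 without the PN stage (0.22, adjusted p = 0.0748), or Ern1 with the wider mid window (0.15, adjusted p = 0.351).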

How the results depend on the processing

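Pseudocount, filter, scaling, windows, the spread and each library were varied one at a time. A pseudocount of 0.1 called 2031 genes in BP minus NSC, 2256 in NBN minus BP, 2788 in NSC late minus mid, 1534 in BP late minus mid and 893 in NBN late minus early, against 1255, 1461, 1824, 730 and 361 with a pseudocount of 1. With a pseudocount of 5 these counts were 634, 729, 918, 285 and 132, and those of NBN minus NSC, NSC mid minus early and the BP minus NSC change were 1791, 1625 and 780, against 2961, 2944 and 1505. Stages up to E16.5 called 592 genes in BP minus NSC, 1567 in NBN minus NSC and 2 members in NBN minus BP (Atf5 at -1.05). NSC mid minus early called 3 members with a pseudocount of 0.1 and 1 to 2 members when 1 library was left out: Eif2ak3 (0.97) reached 1.02 in both cases, and Trib3 was -1.37 with the pseudocount of 0.1. BP late minus mid called 1 member without PN, a choice made after seeing the data.

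Scaling moved the median of all genes by over 0.1 (log2) in several comparisons, and with it the split of calls. As deposited, then with median ratio scaling, then with quantile normalization, higher and lower calls were 676 and 785, 783 and 660, and 780 and 657 in NBN minus BP; 1009 and 1952, 1220 and 1711, and 1466 and 1501 in NBN minus NSC; 2128 and 816, 1547 and 1371, and 1444 and 1325 in NSC mid minus early; 1444 and 380, 1242 and 466, and 956 and 698 in NSC late minus mid; and 510 and 220, 389 and 285, and 327 and 328 in BP late minus mid. In BP minus NSC, 290 were higher and 965 lower as deposited, and 398 and 798 with quantile normalization. The calls of Asns and Atf5 kept their direction in all of these: Asns lay between 1.38 and 1.61 in NBN minus NSC and between -1.41 and -1.15 in NSC mid minus early.

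Of 80 member differences, 52 passed an adjusted p of 0.05, and 35 of these also passed under every alternative that could be run for them. Some changed sign. With median ratio scaling these were Eif2ak3 (0.01, NBN minus BP), Ddit3 (0.13, NBN minus NSC; -0.05, BP late minus mid; -0.02, NBN late minus early) and Chac1 (-0.03, NSC late minus mid). Quantile normalization gave Eif2ak3 0.02 in NBN minus BP and -0.03 in NSC late minus mid, Ern1 0.19 and Ddit3 0.16 in NBN minus NSC, Chac1 -0.32 in NSC late minus mid, and Ddit3 -0.03 in BP late minus mid. In NBN late minus early it gave Chac1 -0.05, Asns 0.00, Trib3 -0.02 and Atf4 0.00. Other windows gave Hspa5 0.01 (BP minus NSC up to E16.5), Ern1 0.07 (NSC late minus mid), Trib3 -0.09 (the BP minus NSC change) and, for NBN late minus early, Ddit3 -0.01, Trib3 -0.01 and Atf4 0.01. Without PN, Eif2ak3 was 0.05 (BP late minus mid), Ddit3 -0.05 (NBN late minus early) and Trib3 -0.01 (the BP minus NSC change). The causes were not tested.

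Leaving out 1 library at a time, differences that passed 0 were those of Asns (-0.05 to 0.08, BP minus NSC), Chac1 (-0.02 to 0.08, NSC late minus mid), Trib3 (-0.08 to 0.03, BP late minus mid; -0.02 to 0.09, the BP minus NSC change), Ddit3 (-0.04 to 0.03) and Eif2ak3 (-0.01 to 0.05) in NBN minus NSC, and Ddit3 (-0.04 to 0.05), Asns (-0.09 to 0.04) and Atf4 (-0.03 to 0.00) in NBN late minus early. Deviations of same-numbered libraries of different cell types correlated at r = -0.23 to 0.46 over 51 pairs (median 0.04, 18 above 0.1). Of 14 NBN and BP pairs, from 1 reporter line, 8 were above 0.1 (median 0.12). No stage with 3 or more pairs had every pair above 0.1, so the numbers were not taken to pair libraries. With the replicate block, 1259, 1461, 2961, 2964, 1855, 733, 357 and 1512 genes were called over the 8 comparisons in the order of the report's counts for BP minus NSC, NBN minus BP, NBN minus NSC, NSC mid minus early, NSC late minus mid, BP late minus mid, NBN late minus early and the difference of changes. No member's call changed under it, and Chac1 was -0.00 in NSC late minus mid. TPM carry no depth, so precision for Trib3 and Chac1, the genes of lowest level, rests on the spread between libraries alone.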

Other observations

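Stc2, a secreted glycoprotein of the CHOP target list, was higher late than mid in both progenitor types, by log2 differences of 2.45 ± 0.14 in BP (group values 13.1 and 1.57 TPM) and 1.65 ± 0.13 in NSC (8.61 and 1.98 TPM). Phgdh averaged 18.2 TPM in BP and 231 TPM in NSC, a log2 difference of -3.46 ± 0.07, and in NSC it was 1.49 ± 0.12 higher late than mid. Bbc3, the PUMA gene, averaged 36.4 TPM in NBN and 13.3 TPM in NSC (1.62 ± 0.06), the opposite direction to the chaperones. Bag3, a heat shock co-chaperone, was 1.75 ± 0.09 higher in late than in mid NSC, with 8.5 and 1.8 TPM.

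The fall of Asns in stem cells was interrupted once before birth. NSC had 37.7, 29.6, 26.7 and 30.9 TPM at E15.5, all above the 22.4, 17.8 and 22.9 TPM at E14.5 and above the 16.6, 20.8, 17.46 and 14.6 TPM at E16.5. Of all tested genes 15.6% were higher at E15.5 than at E14.5 without overlap, and 10.5% were lower at E16.5 than at E15.5.

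Over the 23 group means, as a description, the genes nearest to the remaining members were Adrm1 and Rnf7 for Atf4 (both r = 0.92), Arhgef25 (0.91) and Elavl2 (0.90) for Ddit3, Nipsnap3b and Ccrn4l for Xbp1 (both 0.86), Dner (0.86) and Shisa6 (0.82) for Chac1, and Fezf1 (0.90) and Dlk1 (0.86) for Trib3. All of these values share libraries, stages and cell types.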
